A study of Mus musculus with 15 samples.

Results

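A set of 9 genes that encode enzymes of epidermal cornification was followed: the transglutaminases Tgm1, Tgm2, Tgm3 and Tgm5, the peptidylarginine deiminases Padi1, Padi2, Padi3 and Padi4, and caspase 14 (Casp14). They were taken by name, as the rows of the count table whose gene symbol was one of these, and all 9 of 9 were found among the 55487 genes of the table. They were chosen by name after results of these same 15 libraries, their levels in the 3 groups included, had been seen, so their values are given as descriptions and the fits below were made over all genes tested.

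Skin from mice of 3 weeks of age on the C57BL/6 background was measured by 3′ mRNA sequencing with the QuantSeq kit, which reads polyadenylated transcripts at their 3′ ends, so that a long transcript does not gain counts by its length. There were 5 libraries labelled WT, 5 labelled OTULIN-KO with non-lesional appearance and 5 labelled OTULIN-KO with lesional appearance. The OTULIN-KO mice carried Otulin fl/fl alleles and a K14-Cre transgene, which expresses Cre recombinase from the keratin 14 promoter in keratinocytes, and the controls were littermates without deletion of Otulin, the gene of a deubiquitinase that removes linear ubiquitin chains. The study compared gene expression in non-lesional and in lesional OTULIN-KO skin with that in WT skin. Whole skin was used, so dermis, vessels, muscle and immune cells are in every library, and fewer cells of a type and less RNA per cell cannot be told apart. The sources do not say whether the lesional and non-lesional pieces came from the same mice, and replicates are named by the numbers in their labels. The study describes the profiles of a group as coming from as many mice as there are libraries, and the labels do not tie each library to a mouse.

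In the uppermost living layer of the epidermis, keratinocytes replace their plasma membrane with a cornified envelope. Transglutaminases join glutamine and lysine side chains of envelope proteins such as loricrin and involucrin into an insoluble shell. Peptidylarginine deiminases turn the arginines of keratins, filaggrin and the hair protein trichohyalin into citrulline, and caspase 14 takes part in breaking filaggrin down to the amino acids that keep the surface moist.

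In GRCm38, with the GENCODE M21 annotation, the 4 deiminase genes lie side by side on chromosome 4, Padi4 at chr4:140745865-140774236, Padi3 at chr4:140785365-140810648 and Padi1 at chr4:140812983-140845778 on the minus strand, and Padi2 at chr4:140906344-140952586 on the plus strand. Of the transglutaminase genes, Tgm5 (chr2:121046111-121085841, minus strand), Tgm3 (chr2:130012349-130050399, plus strand) and Tgm2 (chr2:158116402-158146436, minus strand) share chromosome 2, and Tgm1 (chr14:55700009-55713926, minus strand) is alone on chromosome 14. Casp14 (chr10:78711991-78718294, minus strand) is the shortest of the 9 loci. Exons of Tgm1, Tgm2, Padi1 and Padi2 overlap exons of a gene on the other strand, and since the stated counting parameters name no strand option, reads of such partners cannot be told apart in those stretches.

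Promoter sequences are shown for the members whose values set single libraries apart, Casp14, Tgm1 and Padi4 in lesional replicates 2 and 11 and Padi1 and Padi3 in WT replicate 1, and for Tgm3, which had the smallest p between non-lesional and WT libraries among the 6 members that passed the filter on low counts. They are the bases before the RefSeq start in GRCm38.p6, written 5′ to 3′ on the strand of the gene, without bases that the annotation gives as exon. Capitals mark the motifs searched, which were TGANTCA (AP-1 type), TATAAA and CCAAT, on either strand. The windows are chr10:78718295-78718543 for Casp14, chr14:55713495-55713742 for Tgm1 (inside the annotated span of the gene, upstream of one of its RefSeq starts), chr2:130012090-130012339 for Tgm3, chr4:140845779-140846028 for Padi1, chr4:140810649-140810898 for Padi3 and chr4:140774237-140774453 for Padi4.
Casp14: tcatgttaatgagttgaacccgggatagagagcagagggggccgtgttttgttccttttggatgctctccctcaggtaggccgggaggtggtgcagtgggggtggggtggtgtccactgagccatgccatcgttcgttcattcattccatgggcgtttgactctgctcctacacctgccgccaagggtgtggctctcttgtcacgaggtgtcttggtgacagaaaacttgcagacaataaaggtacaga
Tgm1: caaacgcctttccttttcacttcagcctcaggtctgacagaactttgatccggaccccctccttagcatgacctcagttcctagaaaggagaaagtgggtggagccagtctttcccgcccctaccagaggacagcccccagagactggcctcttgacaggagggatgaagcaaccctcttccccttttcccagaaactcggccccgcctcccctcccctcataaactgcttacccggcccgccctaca
Tgm3: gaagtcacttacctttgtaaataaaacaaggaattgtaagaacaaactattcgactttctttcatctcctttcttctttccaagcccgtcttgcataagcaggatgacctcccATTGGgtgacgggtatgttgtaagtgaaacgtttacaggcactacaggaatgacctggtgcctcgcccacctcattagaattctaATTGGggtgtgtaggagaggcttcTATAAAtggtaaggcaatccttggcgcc
Padi1: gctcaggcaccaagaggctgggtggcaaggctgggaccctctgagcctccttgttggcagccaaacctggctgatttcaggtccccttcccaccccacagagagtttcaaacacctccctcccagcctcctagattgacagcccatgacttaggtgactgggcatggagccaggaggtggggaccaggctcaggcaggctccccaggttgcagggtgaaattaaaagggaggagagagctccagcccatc
Padi3: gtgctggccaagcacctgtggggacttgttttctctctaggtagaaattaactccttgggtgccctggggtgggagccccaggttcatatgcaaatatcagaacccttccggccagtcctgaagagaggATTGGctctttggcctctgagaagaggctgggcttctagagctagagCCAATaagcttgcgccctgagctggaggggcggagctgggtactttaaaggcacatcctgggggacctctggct
Padi4: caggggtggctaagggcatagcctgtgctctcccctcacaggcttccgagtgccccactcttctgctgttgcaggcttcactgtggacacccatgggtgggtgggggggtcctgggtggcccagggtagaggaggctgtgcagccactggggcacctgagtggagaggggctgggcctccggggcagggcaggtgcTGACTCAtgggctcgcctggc

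The table of promoters held 9 windows for 8 of the 9 genes, and Tgm2 was not among them. The Tgm3 window holds TATAAA from 28 bases before the start and CCAAT from 137 and 52 bases before it, and the Padi3 window holds CCAAT from 121 and 74 bases before the start. The windows shown for Casp14, Tgm1 and Padi1 hold none of these motifs. The Padi4 window holds TGANTCA from 54 bases before the start, and TATAAA from 31 bases before it in the part left out as exon. Among the windows not printed, those of Padi2 and Tgm5 hold CCAAT, as does the window of the other Tgm1 start, from 174 bases before it. Over all 32851 windows of 250 bases, 33.8% hold CCAAT, 12.4% TATAAA and 6.75% TGANTCA. A match describes the letters of the window only.

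Library totals ran from 1962604 to 2567138 counts. The deleted gene did not separate the labels: Otulin was at 12.3 to 28.2 CPM (each count scaled by the TMM-normalized total of its library) in WT, 21.3 to 30.6 in non-lesional and 18.8 to 27.2 in lesional libraries, in tissue that also holds cells without K14-Cre. Some libraries stood apart. In lesional replicates 2 and 11 the summed CPM of Krt6a, Krt6b, Krt16 and Krt17, keratins of hyperplastic epidermis, was 12860 and 32044, against 658 to 2190 in the other 13 libraries, and all 4 genes were above every other library. In the same libraries the neutrophil list summed to 3007 and 5257 CPM, mainly S100a8 and S100a9, against 222 in non-lesional replicate 3 and 7.61 to 26.8 in the rest, while Ly6g, Csf3r and Mpo were at 0 in all 15. Of the list's 10 genes with counts, Mmp9 (19.9 and 92.3 CPM) and Cxcr2 (11 counts in each) were, with S100a8 and S100a9, above every other library, where Mmp9 was at 11.2 CPM or below and Cxcr2 at 2 counts or fewer. WT replicate 1 had the highest value of all 14 hair shaft genes that were in the table. The skeletal muscle list summed to 3421 CPM in lesional replicate 11 and to 14668 to 33735 CPM in the other 14 libraries, with 3 of its 10 genes, Actn3, Myh4 and Pvalb, lowest in lesional replicates 2 and 11. Of the 10 macrophage genes, Aif1, C1qa, Cd14 and Mrc1 were highest in these 2 libraries, and the list summed to 678 and 777 CPM there and to 377 to 788 CPM elsewhere. Of all 28555 genes with counts, 6.18% were above and 3.5% below the other 13 libraries in both of these libraries, and of the 13461 that passed the filter over 15 libraries, 9.61% and 6.72%. The differences of the members and of the pathway lists in the lesional comparisons are given below also without replicates 2 and 11.

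**Figure D1:**
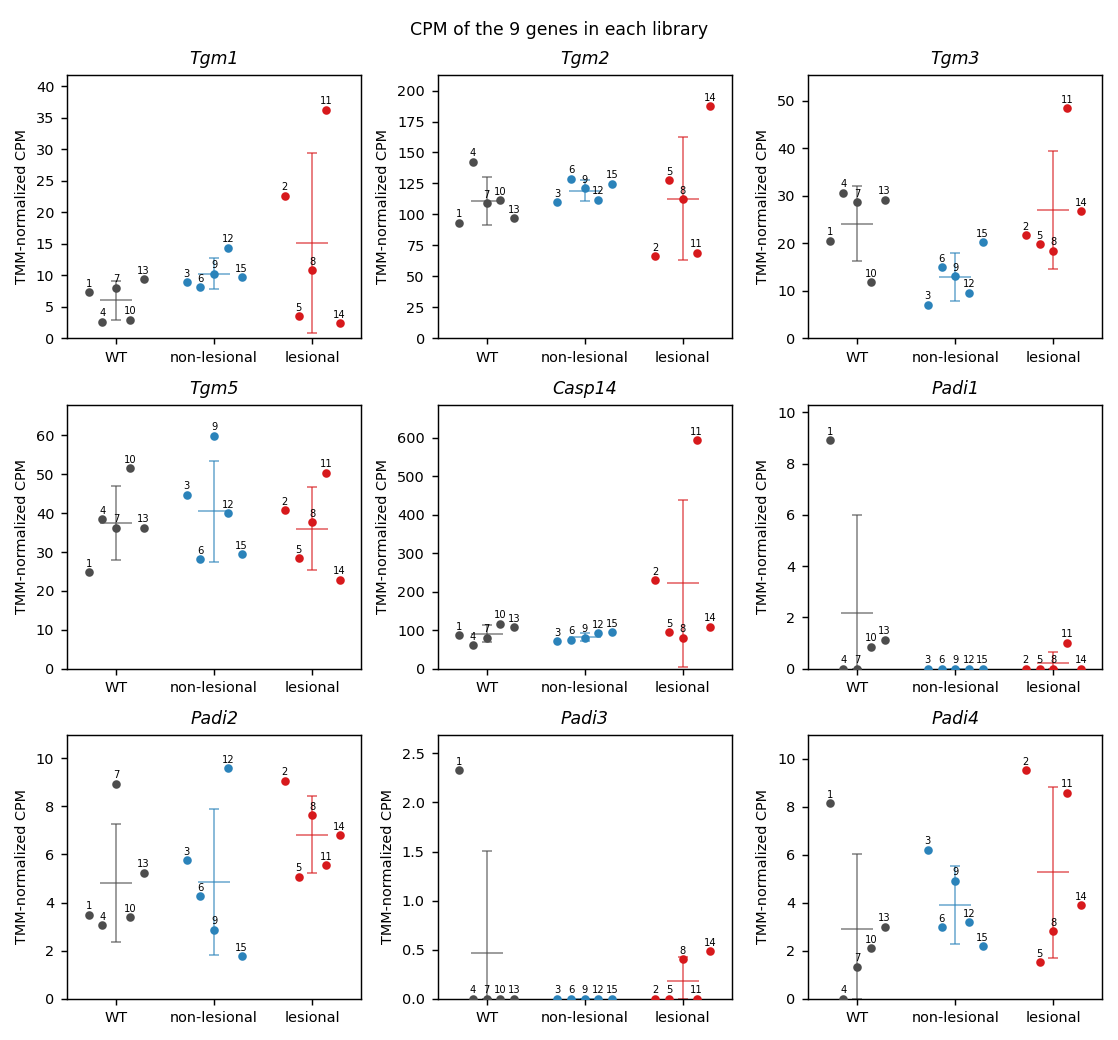
TMM-normalized CPM of the 9 genes in the 15 libraries, by group, each point 1 library with its replicate number; horizontal marks are group means and bars 1 SD (cut at 0 below), n = 5. Casp14 reached 231 and 595 CPM in lesional replicates 2 and 11 and stayed at 61.3 to 117 in the other libraries, and Padi1 and Padi3 were highest in WT replicate 1.

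By median CPM over the 15 libraries, the order was Tgm2 (112), Casp14 (91.8), Tgm5 (37.7), Tgm3 (20.2), Tgm1 (8.87), Padi2 (5.24) and Padi4 (2.99), with Padi1 and Padi3 at a median of 0. The upper neighbours were not well separated everywhere: Tgm2 was above Casp14 in 11 of 15 libraries, Tgm1 above Padi2 in 10 and Padi2 above Padi4 in 9. Casp14 was above Tgm5 in 15 of 15 libraries, Tgm5 above Tgm3 in 14, Padi4 above Padi1 in 13 and Tgm3 above Tgm1 in 12. Over all libraries Casp14 had 4382 counts and Tgm1 358, while Padi1 and Padi3 had 30 and 8.

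Together the 9 genes held 253 to 301 CPM in the WT and non-lesional libraries and 270 to 814 CPM in the lesional libraries. The sums of lesional replicates 2, 5, 8, 11 and 14 were 400, 281, 270, 814 and 360 CPM. Casp14 made up 57.6% and 73.0% of the members' counts in lesional replicates 2 and 11 and 22.0% to 38.8% in every other library. Tgm2, whose share was 33.5% to 52.1% elsewhere, was down to 16.5% and 8.49% of the members' counts there.

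**Figure D2:**
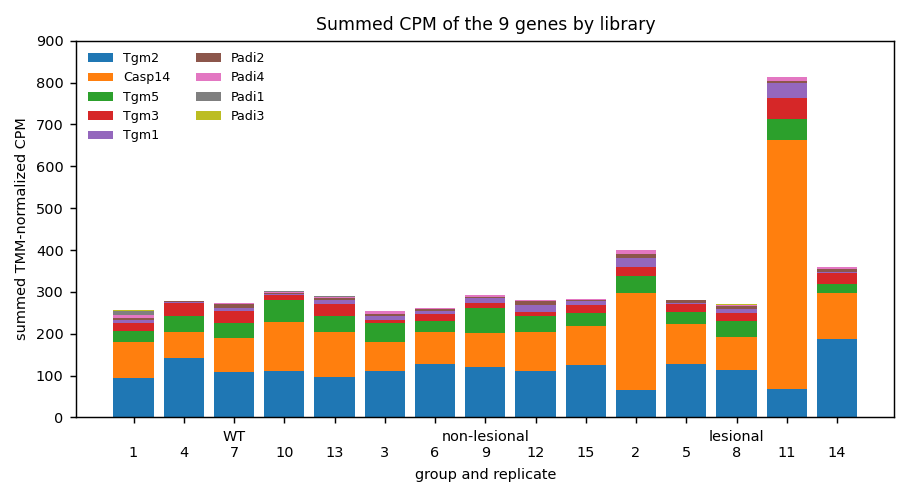
Summed TMM-normalized CPM of the 9 genes in each library, stacked by gene, with the replicate number under each bar. The bars of lesional replicates 2 and 11 reach 400 and 814 CPM, mostly Casp14, and the 10 bars of the WT and non-lesional groups lie between 253 and 301 CPM.

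Tgm1 encodes the membrane-bound transglutaminase of keratinocytes, which begins the cross-linking of the envelope and attaches lipids to it. Its CPM were 7.37, 2.63, 8.06, 2.96 and 9.35 in WT replicates 1, 4, 7, 10 and 13, and 8.87, 8.10, 10.3, 14.4 and 9.67 in non-lesional replicates 3, 6, 9, 12 and 15. The lesional values were 22.6, 3.56, 10.8, 36.3 and 2.43 in replicates 2, 5, 8, 11 and 14. Replicates 2 and 11 were above all other libraries, replicate 14 was below all of them, and the groups overlapped throughout. Each value rests on 5 to 72 counts. The group means were 6.07 ± 3.08 (SD, n = 5) in WT, 10.3 ± 2.44 in non-lesional and 15.2 ± 14.3 in lesional libraries, so the spread of the lesional group was almost as large as its mean. The log2 fold change was 0.74 (SE 0.32) between non-lesional and WT, with an unadjusted p of 0.0323, and 1.30 (SE 0.66) between lesional and WT libraries, with an unadjusted p of 0.0741, both from edgeR's quasi-likelihood test. Without lesional replicates 2 and 11 the value against WT was -0.084, and without replicate 11 alone it was 0.71. Between lesional and non-lesional libraries Tgm1 was at 0.55 (SE 0.58), and at -0.82 (SE 0.40) without replicates 2 and 11.

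Tgm3 encodes the cytosolic transglutaminase of the upper epidermis and the hair follicle, which is made as a precursor and cut by a protease. WT replicates 1, 4, 7, 10 and 13 had 20.6, 30.6, 28.6, 11.8 and 29.2 CPM, and non-lesional replicates 3, 6, 9, 12 and 15 had 7.10, 14.9, 13.1, 9.58 and 20.2 CPM. Only WT replicate 10 was within the range of the non-lesional libraries, the other 4 WT libraries being at 20.6 CPM or above. Lesional replicates 2, 5, 8, 11 and 14 had 21.7, 19.8, 18.5, 48.4 and 26.8 CPM, within or above the WT range. The group medians were 28.6 (SD 7.94) in WT, 13.1 (SD 5.06) in non-lesional and 21.7 CPM (SD 12.4) in lesional libraries (n = 5). The log2 fold change was -0.90 (SE 0.28) between non-lesional and WT and 1.05 (SE 0.32) between lesional and non-lesional libraries, with unadjusted p of 0.00515 and 0.00495 from edgeR's quasi-likelihood test. Neither passed the adjustment over all genes, where the adjusted p were 0.9998 and 0.9725. These comparisons share the non-lesional libraries. Most of the hair follicle genes that were tested had the same signs, none with an adjusted p under 0.05. Tested were 3 of the 14 hair shaft genes and 2 of the 10 root sheath genes in each comparison. Between non-lesional and WT libraries all of them were negative, with Krt32 at -0.58 (SE 0.19) and Tchh at -3.04 (SE 1.24). Tchh was at 965 CPM in WT replicate 1, while its medians were 29.3 CPM in WT and 26.6 CPM in non-lesional libraries. Between lesional and non-lesional libraries 2 of the 3 hair shaft genes and both root sheath genes were positive, with Tchh at 1.05 (SE 0.46), or 0.027 (SE 0.26) without lesional replicates 2 and 11, and Krt75 at 0.60 (SE 0.27). With a hair score as covariate Tgm3 was at -0.95 and 1.10 in these comparisons. Leaving out each library in turn moved the first value between -1.10 and -0.75 and the second between 0.74 and 1.26, and without lesional replicates 2 and 11 the second value was 0.74 (SE 0.28), while the difference of lesional from WT libraries went from 0.15 to -0.16. With no filter on low counts, the adjusted p of Tgm3 between non-lesional and WT libraries was 0.03911, at the same log2 fold change of -0.90.

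Tgm5 encodes a further transglutaminase of the differentiated epidermis, and Tgm2 the tissue transglutaminase, which is found in many cell types, the endothelium among them. Tgm5 was between 24.8 and 51.6 CPM in WT, 28.1 and 59.9 in non-lesional and 22.9 and 50.4 in lesional libraries, with medians of 36.3, 39.9 and 37.7. Its log2 fold changes were 0.12 (SE 0.21), -0.055 (SE 0.23) and -0.17 (SE 0.25) for non-lesional against WT, lesional against WT and lesional against non-lesional libraries, each smaller than its error. The last pair were -0.33 (SE 0.24) and -0.44 (SE 0.25) without lesional replicates 2 and 11. Tgm2 had 93.5, 143, 109, 112 and 96.9 CPM in WT replicates 1, 4, 7, 10 and 13, and 110 to 129 CPM in the non-lesional libraries. In lesional replicates 2, 5, 8, 11 and 14 it had 66.1, 128, 112, 69.1 and 187 CPM. The 2 libraries with the most Casp14, replicates 2 and 11, were the 2 lowest of all 15 for Tgm2, and replicate 14 was the highest. The means were 113 ± 49.7 CPM (SD, n = 5) in lesional, 111 ± 19.4 in WT and 119 ± 8.15 in non-lesional libraries, and the log2 fold change between lesional and WT libraries was 0.019 (SE 0.25). Without replicates 2 and 11 the lesional mean was 142 ± 39.6 CPM (n = 3), with a log2 fold change of 0.36 (SE 0.18) against WT and 0.25 (SE 0.15) against non-lesional libraries. The endothelium list covers cells that make Tgm2. It summed to 170 and 242 CPM in lesional replicates 11 and 2 and to 249 to 354 CPM in the other libraries. Of its 9 genes, 2, Emcn and Tek, were lowest in lesional replicates 2 and 11, beside 3.5% of all genes with counts. The skeletal muscle list was lowest in lesional replicates 11 and 2, at 3421 and 14668 CPM, and highest in replicate 14, at 33735 CPM, which are also the lowest and the highest libraries of Tgm2. The part of either in the values of Tgm2 was not tested.

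Padi1 and Padi3 encode the deiminases best known from the epidermis and the hair follicle, where they act on filaggrin, keratins and trichohyalin. Padi1 had 23, 0, 0, 2 and 3 counts in WT replicates 1, 4, 7, 10 and 13, and 0 counts in all 5 non-lesional libraries. The 5 lesional libraries, replicates 2, 5, 8, 11 and 14, had 0, 0, 0, 2 and 0 counts. Padi3 had 6 counts in WT replicate 1, 1 count each in lesional replicates 8 and 14 and none in the other 12 libraries. Neither gene passed the filter on low counts, and a count of 0 in a library allows up to 3 counts at this depth, counting error only. WT replicate 1 thus held 23 of the 30 Padi1 counts and 6 of the 8 Padi3 counts of the series.

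WT replicate 1 was also the library with the most counts of hair follicle genes. The list of 10 inner root sheath and medulla genes summed to 1378 CPM in it, to 198 CPM in WT replicate 13, to 175 and 159 CPM in lesional replicates 2 and 11, and to 48.3 to 96.8 CPM in the other 11 libraries. Of these 10 genes, 9, Tchh (trichohyalin), S100a3 and the keratins Krt25, Krt26, Krt27, Krt71, Krt72, Krt73 and Krt75, were highest in WT replicate 1, and Krt28 was lowest there. Tchh was at 965 CPM in that library and at 19.3 to 105 CPM in the other 14. Tgm6, a transglutaminase outside the 9 genes, had 20 counts in WT replicate 1 and at most 7 in any other library. The part of hair follicle RNA in the counts of Padi1 and Padi3 was not tested. With no filter on low counts, the fitted log2 fold change of Padi1 between non-lesional and WT libraries was -5.45 (edgeR's quasi-likelihood test, adjusted p = 0.009694). This fitted value depends on the prior count and is no bound, since the non-lesional libraries held 0 counts, and 23 of the 28 WT counts came from replicate 1. The same fit gave Padi3 an adjusted p of 0.7466.

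**Figure D3:**
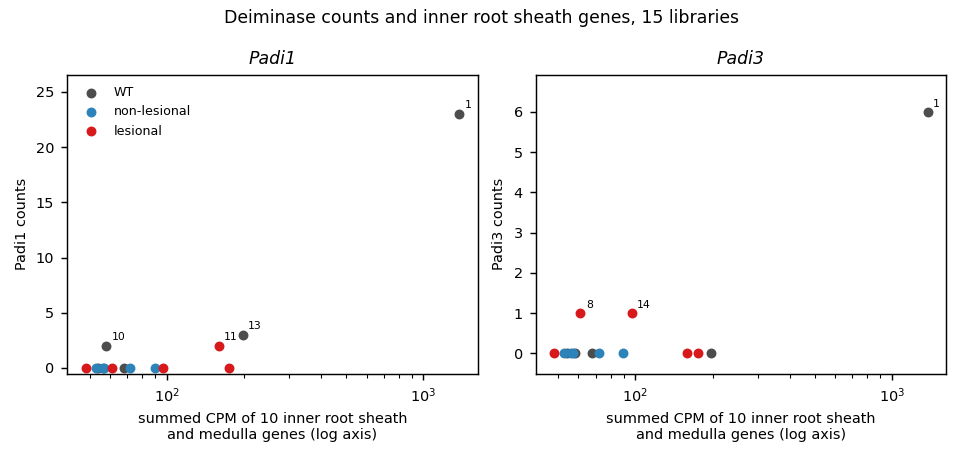
Counts of Padi1 (left) and Padi3 (right) in the 15 libraries against the summed TMM-normalized CPM of 10 inner root sheath and medulla genes (log axis), coloured by group and numbered by replicate where a count is above 0. WT replicate 1 is alone at the upper right, with 23 and 6 counts at 1378 CPM, and all other libraries lie at 3 counts or fewer.

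Padi2 encodes a widely expressed deiminase, and Padi4 the deiminase of granulocytes, which acts on histones. Padi2 had 3.49, 3.06, 8.95, 3.38 and 5.24 CPM in WT replicates 1, 4, 7, 10 and 13, and 5.77, 4.26, 2.87, 9.58 and 1.76 CPM in non-lesional replicates 3, 6, 9, 12 and 15. It had 9.06, 5.08, 7.63, 5.55 and 6.81 CPM in lesional replicates 2, 5, 8, 11 and 14. All 5 lesional values lay inside the range of the non-lesional libraries, and the means of 4.83 ± 2.46, 4.85 ± 3.04 and 6.83 ± 1.61 CPM (SD, n = 5) overlapped in their spread. The log2 fold changes were 0.026 (SE 0.42) between non-lesional and WT, 0.51 (SE 0.34) between lesional and WT and 0.49 (SE 0.39) between lesional and non-lesional libraries. The last pair were 0.44 (SE 0.41) and 0.42 (SE 0.45) without lesional replicates 2 and 11. Padi4 had 21, 0, 3, 5 and 8 counts in WT replicates 1, 4, 7, 10 and 13, 14, 7, 12, 8 and 5 counts in non-lesional replicates 3, 6, 9, 12 and 15, and 21, 3, 7, 17 and 8 counts in lesional replicates 2, 5, 8, 11 and 14. The libraries with the most Padi4 were lesional replicates 2 and 11 and WT replicate 1. Lesional replicates 2 and 11 also stood apart in the keratins of hyperplastic epidermis and in S100a8, S100a9, Mmp9 and Cxcr2. Those last genes belong to the neutrophil list, whose Ly6g, Csf3r and Mpo were at 0 in all libraries. WT replicate 1 stood apart in its hair genes. The part of any of these genes in the Padi4 counts was not tested. Padi4 did not pass the filter of any pair of groups.

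Casp14 encodes a caspase found mainly in cornifying keratinocytes. Its CPM were 87.3, 61.3, 80.6, 117 and 108 in WT replicates 1, 4, 7, 10 and 13, and 70.5, 74.6, 80.4, 91.8 and 94.1 in non-lesional replicates 3, 6, 9, 12 and 15. In lesional replicates 2, 5, 8, 11 and 14 they were 231, 95.0, 79.9, 595 and 109. Replicates 2 and 11 were above every other library, by 1.39 and 2.76 on the log2 scale relative to the WT median, and the other 3 lesional libraries lay within the WT range. The group means were 90.8 ± 22.2 CPM in WT, 82.3 ± 10.4 in non-lesional and 222 ± 217 in lesional libraries (SD, n = 5). The log2 fold change was -0.14 (SE 0.15) between non-lesional and WT, 1.29 (SE 0.54) between lesional and WT and 1.42 (SE 0.53) between lesional and non-lesional libraries. The last pair had unadjusted p of 0.0364 and 0.0224 and adjusted p of 0.9256 and 0.9725 in edgeR's quasi-likelihood test. Without lesional replicate 11 these values were 0.51 and 0.65, and without replicates 2 and 11 they were 0.052 and 0.20. The keratins of hyperplastic epidermis were also highest in these 2 libraries, as were 4 of the 10 neutrophil genes with counts and 4 of the 10 macrophage genes. Of the 10 muscle genes, 3 were lowest there. All genes with counts gave 6.18% above and 3.5% below. The part of these genes in the Casp14 level was not tested.

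Over all genes, edgeR's quasi-likelihood test with Benjamini-Hochberg adjustment called 0 of 13021 genes (0%) between non-lesional and WT, 0 of 12918 (0%) between lesional and WT and 0 of 12864 (0%) between lesional and non-lesional libraries at an adjusted p under 0.05. In each comparison 6 of the 9 members were tested, Tgm1, Tgm2, Tgm3, Tgm5, Padi2 and Casp14, and 0 were called. DESeq2's Wald test called 1, 14 and 0 genes over all genes and 0 members. At an unadjusted p under 0.05 stood 2 members between non-lesional and WT libraries, Tgm1 on the higher and Tgm3 on the lower side, beside 411 of all genes (3.16%), of which 1.85% of all genes were higher and 1.31% lower. Between lesional and WT libraries it was 1 member, Casp14, on the higher side, beside 621 genes (4.81%; 3.24% higher and 1.56% lower). Between lesional and non-lesional libraries Casp14 and Tgm3 were on the higher side, beside 543 genes (4.22%; 2.89% higher and 1.33% lower). When a log2 fold change of 1 or more in size was asked for as well, 0, 1 and 2 members were left in these comparisons, beside 0.169%, 1.08% and 0.606% of all genes. The 3 comparisons share libraries in pairs, so their counts are not independent.

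The signs of the members were mixed in each comparison. Of the 6 tested, 4 had a positive log2 fold change and 2 a negative one between non-lesional and WT, 5 and 1 between lesional and WT, and 4 and 2 between lesional and non-lesional libraries. Their medians were 0.068, 0.33 and 0.52, where the medians of all genes were -0.0027, -0.0034 and 0.0031. With replicates 2 and 11 left out of the lesional group, the members were 3 positive and 3 negative against WT and 4 and 2 against non-lesional libraries, with medians of -0.016 and 0.23. The values of the groups overlapped for all 9 members in all 3 comparisons, while they did not overlap for 0.66% of all genes between non-lesional and WT, 0.72% between lesional and WT and 0.56% between lesional and non-lesional libraries.

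**Figure D4:**
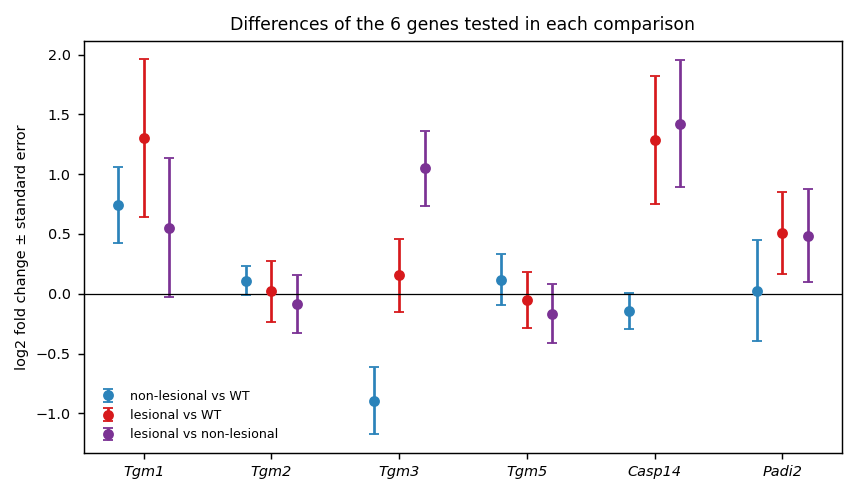
Log2 fold change and standard error of the 6 members tested, from edgeR's quasi-likelihood fit of each pair of groups, 5 libraries against 5. Tgm3 lies at -0.90 between non-lesional and WT and at 1.05 between lesional and non-lesional libraries, and Casp14 lies at 1.29 and 1.42 in the lesional comparisons with error bars of about 0.53.

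The substrates of these enzymes were read from a list of 29 genes of the cornified envelope. Of 21 tested between non-lesional and WT libraries, 10 had a positive and 11 a negative log2 fold change, with a median of -0.016. Between lesional and WT libraries the split was 13 to 9 of 22, with a median of 0.23, and between lesional and non-lesional libraries it was again 13 to 9, with a median of 0.067. None had an adjusted p under 0.05. The genes with the smallest p among those of positive and of negative sign were Lce3c, a late cornified envelope protein, at 4.25 (SE 1.54), and Lce1m at -0.62 (SE 0.34) between lesional and WT libraries, and Evpl (envoplakin) at 0.38 (SE 0.16) and Krt10 at -0.66 (SE 0.31) between lesional and non-lesional libraries. Between non-lesional and WT libraries they were Hrnr (hornerin) at 0.23 (SE 0.12) and Scel (sciellin) at -0.19 (SE 0.14).

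Without lesional replicates 2 and 11 the split was 9 to 13 against WT and 8 to 14 against non-lesional libraries, with medians of -0.059 and -0.053. Lce3c was then at -0.74 (SE 0.68) and Lce1m at -0.22 (SE 0.18) against WT, and Evpl at 0.19 (SE 0.16) and Krt10 at -0.55 (SE 0.35) against non-lesional libraries.

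Lesional replicates 2 and 11 divided this list. In both libraries 14 of the 27 envelope genes with counts were above all the other 13 libraries, Flg, Ivl, Krt1, Rptn, Cnfn, Evpl, Dsp, Lce3c, Sprr1a, Sprr1b, Sprr2d, Sprr2e, Sprr2h and Sprr4, and 4 were below all of them, Lor, Lce1m, Flg2 and Krt77, where all genes with counts gave 6.18% above and 3.5% below. Filaggrin (Flg), the protein that caspase 14 helps to break down, was at 294 to 457 CPM in WT, at 339 to 528 in non-lesional and at 376 to 2196 CPM in the lesional libraries, with a lesional median of 453 CPM. Lor (loricrin), a substrate of transglutaminases, was at 2497 to 3094 CPM in WT libraries and at 859 to 3063 CPM in the lesional libraries, with a lesional median of 2611 CPM. Sprr2a1 and Sprr3 were at 0 in all 15 libraries.

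**Figure D5:**
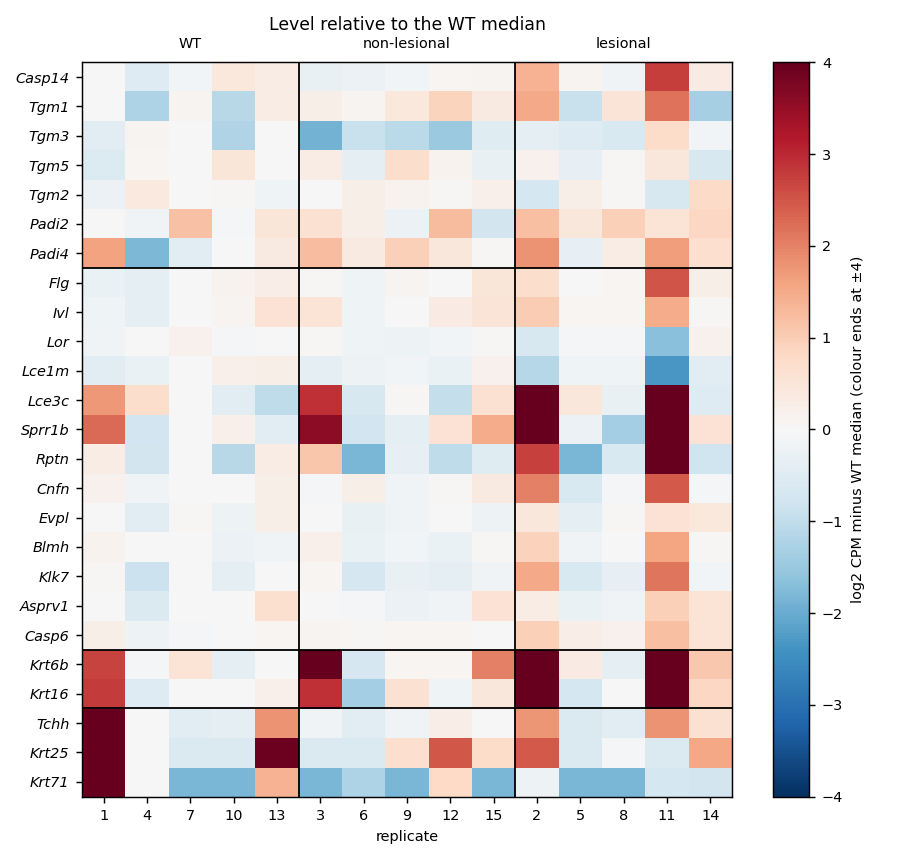
Log2 CPM (prior count 2) of 7 members and 18 other genes in the 15 libraries, as the difference from the median of the 5 WT libraries, on a colour scale that ends at 4 either way; rows from the top are members, envelope and filaggrin processing genes with Casp6, hyperplasia keratins, and inner root sheath genes. The columns of lesional replicates 2 and 11 are high for Casp14 (1.39 and 2.76) and Tgm1 (1.51 and 2.17), and the last 3 rows are highest in WT replicate 1.

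Of 13 genes of filaggrin processing and breakdown 12 were tested, and 5 were positive and 7 negative between non-lesional and WT, 11 and 1 between lesional and WT, and 12 and 0 between lesional and non-lesional libraries, with medians of -0.020, 0.17 and 0.24 and 0 adjusted p under 0.05. Blmh, bleomycin hydrolase, a protease that acts after caspase 14 on filaggrin fragments, was at 0.69 (SE 0.31) between lesional and WT libraries, and Klk7, a kallikrein that cuts the junctions of corneocytes, at 1.20 (SE 0.51) between lesional and non-lesional libraries. In lesional replicates 2 and 11, 6 of the 13 genes, Blmh, Furin, Klk7, Ppp2ca, Spink5 and St14, were above the other 13 libraries and none below them, beside the same shares of all genes. Without these 2 libraries the signs were 5 positive and 7 negative against WT and 7 and 5 against non-lesional libraries, with medians of -0.032 and 0.023, Blmh was at -0.0027 (SE 0.14) against WT and Klk7 at -0.084 (SE 0.16) against non-lesional libraries. The protease gene Prss8 had the smallest p of the negative values between non-lesional and WT libraries, at -0.48 (SE 0.23), and Capn1 that of the positive ones, at 0.10 (SE 0.12).

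All 13 genes of a list of regulators of the epidermal transglutaminases, which holds among others transcription factors, protease genes and Rarres1, were tested. They were split 6 to 7 between non-lesional and WT libraries and 11 to 2 in each of the lesional comparisons, with medians of -0.011, 0.16 and 0.26 and 0 adjusted p under 0.05. Grhl3, a transcription factor of barrier formation that acts on Tgm1, was at 1.01 (SE 0.46) between lesional and WT libraries. Ctsd, cathepsin D, was at 0.47 (SE 0.20) between lesional and non-lesional libraries, and Rarres1 at 0.31 (SE 0.13) between non-lesional and WT libraries. The smallest p among negative values belonged to Trp63 in the comparisons with WT, at -0.22 (SE 0.13) and -0.080 (SE 0.16), and to Cebpa between lesional and non-lesional libraries, at -0.12 (SE 0.13). Without lesional replicates 2 and 11 the split was 3 to 10 and 2 to 11, with medians of -0.14 and -0.15, Grhl3 was at 0.14 (SE 0.41) against WT and Ctsd at 0.084 (SE 0.14) against non-lesional libraries.

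Of 5 other genes of the transglutaminase family, Tgm4 and F13a1 (the A subunit of coagulation factor XIII) were tested. Tgm4 had means of 7.72 ± 1.43, 8.14 ± 2.44 and 6.96 ± 1.27 CPM, and F13a1 of 100.1 ± 23.9, 92.3 ± 12.9 and 88.3 ± 9.17 CPM in WT, non-lesional and lesional libraries (SD, n = 5), and neither differed beyond its spread. Without lesional replicates 2 and 11, Tgm4 was at -0.26 (SE 0.32) against WT and -0.34 (SE 0.33) against non-lesional libraries, and F13a1 at -0.18 (SE 0.19) and -0.052 (SE 0.15). Tgm7 had 0 counts in all libraries, and Padi6, a deiminase of the oocyte, had 2 counts in 1 lesional library and 0 in the other 14. All 9 other caspases were tested, and 5 were positive and 4 negative between non-lesional and WT, 8 and 1 between lesional and WT and 9 and 0 between lesional and non-lesional libraries, with medians of 0.044, 0.35 and 0.60. Casp6, an effector caspase, was at 0.68 (SE 0.21) and 0.63 (SE 0.20) in the lesional comparisons, with 0 adjusted p under 0.05 in the list. Its lesional libraries, at 27.3 to 57.0 CPM, were all above the non-lesional ones, at 23.7 to 26.2 CPM, as held for 0.264% of all genes. Casp6 was one of 3 caspases, with Casp1 and Casp4, that were highest in lesional replicates 2 and 11, as Casp14 was. So were 6.18% of all genes with counts, 9.61% of those that passed the filter over 15 libraries, and 8 of the 13 regulators above. Casp8, the caspase of death receptor signalling, was named after its values were seen: its 5 lesional libraries were above the 5 WT libraries, as held for 0.449% of all genes, at a log2 fold change of 0.56 (SE 0.21) with an adjusted p of 0.9256 in edgeR's quasi-likelihood test. Without lesional replicates 2 and 11 the caspases were split 5 to 4 against WT and 6 to 3 against non-lesional libraries, with medians of 0.022 and 0.14, Casp6 was at 0.32 (SE 0.19) and 0.28 (SE 0.18), and Casp8 was at 0.42 (SE 0.23) against WT.

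The 7 members other than Padi1 and Padi3 gave 21 pairs over the 15 libraries, which share 3 groups and, in lesional replicates 2 and 11, a pair of distant points. Spearman's rho and Pearson's r of log2 CPM were -0.54 and -0.81 for Tgm1 and Tgm2, and 0.21 and 0.64 for Tgm1 and Casp14. Tgm2 and Casp14 gave -0.41 and -0.69, while Tgm3 and Tgm5 gave -0.26 and -0.21. Among the positive pairs, Tgm1 and Padi4 gave 0.54 and 0.65, Padi4 and Casp14 0.34 and 0.55, and Tgm3 and Casp14 0.31 and 0.51. Over the 13 libraries without lesional replicates 2 and 11, rho and r were -0.30 and -0.60 for Tgm1 and Tgm2, -0.22 and -0.17 for Tgm1 and Casp14, -0.10 and -0.011 for Tgm2 and Casp14, -0.51 and -0.50 for Tgm3 and Tgm5, 0.29 and 0.45 for Tgm1 and Padi4, -0.011 and 0.25 for Padi4 and Casp14, and 0.082 and 0.075 for Tgm3 and Casp14.

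For each member, the 3 genes with the highest rho among 13460 genes were looked up, and since they are the highest of so many they are descriptions of these libraries. For Casp14 they were Dync1i2 (rho 0.96, r 0.95), Mark4 (0.93 and 0.82) and Gstk1 (0.89 and 0.70), and without lesional replicates 2 and 11 the r of Dync1i2 was 0.89. For Tgm1 they were Sec11c (0.90), Slc39a1 (0.89) and B2m (0.88), B2m being the light chain of MHC class I. For Tgm2 they were Mdga1 (0.91), Rab34 (0.88) and the keratin gene Krt78 (0.88), whose r was 0.88, and 0.95 without lesional replicates 2 and 14. For Tgm3 they were H13 (0.86), Rab29 (0.83) and Ablim1 (0.81), and for Tgm5 Dbndd2 (0.94), Gtpbp8 (0.86) and Snrpb2 (0.86). For Padi2 they were Eif1ax (0.85), Col8a1 (0.84) and Uba1 (0.83). For Padi4 the gene highest in rho was Irf8 (0.91), a transcription factor of myeloid cells, followed by Aplp2 (0.85) and Pinlyp (0.85).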

How the data were processed

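Skin RNA of 5 WT, 5 non-lesional and 5 lesional samples was sequenced with the QuantSeq 3′ kit (FWD protocol). The authors trimmed the reads (cutadapt 2.10), took out QuantSeq features, aligned to GRCm38 plus ERCC sequences (subread-align), filtered for primary alignments of high quality (samtools 1.7-2) and deposited the featureCounts 2.0.1 count over exons for every gene, in which a read on several genes adds to each. The annotation release is not given in the sources used here, and the stated parameters hold no strand option. The authors also deposited CPM, which equal the count divided by the library's sum (largest difference 5.1e-11) and were not used in tests. The deposited counts are not normalized. The 92 ERCC rows summed to 0 and were left out. No pair of replicates agreed within sampling noise: over the 30 pairs, chi-square per degree of freedom was 3.808 to 49.512. PCR copies were not removed, so intervals by counting cover counting error only.

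Each pair of groups was fitted alone with edgeR 4.0.16 in R 4.3.3 (TMM, filterByExpr, quasi-likelihood F-test with robust estimation, Benjamini-Hochberg adjustment over all genes tested, threshold 0.05). Standard errors were taken as the size of the log2 fold change divided by the root of F. CPM in the text use TMM factors over all 15 libraries, and log2 CPM a prior count of 2. The members and the 14 gene lists (149 genes, of which all but Krt85 matched) were chosen with earlier results of these data known. Genes named beside the members are, in each pathway list and comparison, the tested gene of each sign with the smallest p, the 3 genes most like each member by Spearman's rho, and some marker genes; Casp8, Tgm6 and the genes named as highest or lowest in particular libraries were added with their values in view. Not every gene that this rule selects is reported here. The fits of the lists and the member pairs without lesional replicates 2 and 11 were added after seeing the data. Alternatives tried were DESeq2 1.42.0, its size factors in edgeR, no filter, at least 10 counts in every library, all 15 libraries in 1 fit, no robust estimation, the hair score as covariate, and leaving out libraries. On counts simulated for lesional against WT libraries over 12670 genes, the fit called 45 of 99 genes given a log2 change of 1, 89 of 90 given 2 and 7 of 12481 left as they were. All simulated libraries of a group shared the same mean, with a spread set by the level of the gene. None stood apart as lesional replicates 2 and 11 did, so these shares do not carry over to the measured libraries. Promoters came from RefSeq (GRCm38.p6), gene positions from GENCODE M21.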

Additional observations from a re-analysis of the deposited data

Results flagged for a closer look

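In 4 of the 27 groups of 5 libraries looked at (9 genes in 3 groups), the highest library lay far from the others. The rule was Dixon's criterion of 0.71 for the gap over the range, where chance gives about 1 in 20 for normally distributed values. The CPM were not transformed and need not follow that distribution. Padi1 and Padi3 were at 0 in all non-lesional libraries, so those groups had no gap over range and could not be flagged. The share of 1 in 20 does not apply to Padi3 in WT and Padi1 in lesional libraries, where 4 libraries were at 0 and any count in the last one meets the criterion. Padi1 in WT also rests on few counts. Tgm3 was at 48.4 CPM in lesional replicate 11, with the other 4 lesional libraries at 18.5 to 26.8 CPM. Padi1 was at 8.92 CPM in WT replicate 1, on 23 counts, and Padi3 at 2.33 CPM in the same library, on 6 counts. Padi1 was at 1.01 CPM in lesional replicate 11, which is 2 counts where the other lesional libraries had 0, below the 3 counts that a 0 allows. Casp14 in lesional replicate 11, at a gap over range of 0.707, lay just under the criterion.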

How the results depend on the processing

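The number of members called was 0 in every comparison under every alternative but one: with no filter on low counts, 2 members, Padi1 and Tgm3, were called between non-lesional and WT libraries. Over all genes, that comparison gave 18 calls with no filter (13 higher, 5 lower), 1 with DESeq2's Wald test and 0 to 5 when each library was left out in turn, 5 without non-lesional replicate 6. Lesional against WT libraries gave 14 calls, all higher, with DESeq2 and 0 when each library was left out. Of 312 alternative values of single members, 284 kept their sign and side of the threshold, 1 passed it (Tgm3 with no filter) and 27 turned their sign, in 9 of 18 results, the cause of which was not tested. With the hair score as covariate, Tgm5 and Padi2 between non-lesional and WT libraries were -0.016 and -0.019, and Tgm2 between lesional and WT libraries was -0.053. Without lesional replicates 2 and 11 the log2 fold changes against WT were -0.084 for Tgm1 and -0.16 for Tgm3, and against non-lesional libraries -0.82 for Tgm1 and 0.25 for Tgm2. Leaving out each library gave, between non-lesional and WT, -0.071 to 0.26 for Tgm5 and -0.39 to 0.35 for Padi2. Between lesional and WT it gave -0.24 to 0.17 for Tgm2, -0.15 to 0.27 for Tgm3 and -0.20 to 0.087 for Tgm5. Between lesional and non-lesional it gave -0.31 to 0.018 for Tgm5, -0.34 to 0.059 for Tgm2 and -0.037 to 0.82 for Tgm1. No paired analysis was run because the labels tie no library to a mouse or litter, so lesional and non-lesional libraries may share mice. The genes with the fewest counts were Padi3, Padi1, Padi4, Padi2 and Tgm1, in this order, and few counts limit their values.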
